A study of Homo sapiens with 6 samples.

Results

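A read-through gene is an annotated gene whose transcripts run from one gene, the upstream parent, into the next gene on the same strand, the downstream parent, and its name joins the names of both parents. Such a transcript forms when RNA polymerase passes the poly(A) signal of the upstream gene without cleavage of the RNA, and an exon of the upstream gene is then spliced to an exon of the downstream gene. Cleavage at a poly(A) signal and release of the polymerase need the cleavage and polyadenylation complexes and a set of termination factors. Some read-through transcripts encode a protein with parts of both parents, and others are degraded as targets of nonsense-mediated decay, the pathway that removes messages with an early stop codon.

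The members were the genes with an Ensembl identifier whose symbol has the form X-Y, where X and Y are both symbols in the same table. There were 101 such read-through genes among 19974 annotated genes, and they named 200 parent genes. They formed 99 loci, each a read-through gene with its parents, because 2 loci hold 2 read-through genes that share a parent (EEF1E1-BLOC1S5 with BLOC1S5-TXNDC5, and MIA-RAB4B with RAB4B-EGLN2). The question was whether the read-through genes, their parents and the sum of the counts over each locus differed between the cell lines.

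The RNA came from 3 samples of Huh7 P, the parental hepatocellular carcinoma line, which had no treatment, and from 3 samples of Huh7 LR, a line made resistant by continuous lenvatinib, a tyrosine kinase inhibitor, raised from 1 μM to 20 μM over 10 months. Huh7 LR was derived from Huh7 P, and the series holds 1 resistant line, so the drug, the selection and the time in culture cannot be told apart. The study states that the samples of a group were independent and does not say whether they were separate cultures. The p-values therefore measure the spread between these samples, which may be technical.

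The gene counts summed to between 62738937 and 71427573 per Huh7 P library and between 63233655 and 70768720 per Huh7 LR library. The read-through genes took 0.0727% to 0.0793% of them in Huh7 P and 0.0721% to 0.0923% in Huh7 LR. All 8 hepatocyte markers examined were present, with summed levels of 43498 to 52591 CPM (counts scaled to library size) in Huh7 P and 54989 to 58034 CPM in Huh7 LR. Markers named for other cell types differed between the lines as well. Of the leukocyte, fibroblast and endothelial markers, TYROBP, DCN and CDH5 were at 0 in every library, 1 leukocyte marker, LYZ, was lower in Huh7 LR, and 2 fibroblast and 2 endothelial markers were higher. The summed leukocyte markers lay at 62.0 to 67.6 CPM in Huh7 P and 9.84 to 13.8 CPM in Huh7 LR, nearly all of it LYZ in Huh7 P (60.2 to 65.5 CPM, against 7.74 to 10.1 CPM in Huh7 LR), while CD14 had means of 1.88 and 2.71 CPM (adjusted p = 0.0708) and PTPRC and CD3E had at most 15 counts in a library. The fibroblast markers summed to 2.07 to 2.25 and 5.02 to 7.76 CPM, and the endothelial markers to 38.8 to 47.5 and 65.0 to 71.2 CPM. COL1A1 and PDGFRB were the fibroblast calls, and COL1A2 had at most 11 counts in a library. Nearly all of the endothelial sum was PECAM1 (38.8 to 47.4 CPM in Huh7 P, 64.7 to 70.8 CPM in Huh7 LR). VWF, the other endothelial call, had 0, 0 and 8 counts in Huh7 P against 19, 26 and 21 in Huh7 LR. The samples were cultured cells of the Huh7 line and of the line derived from it, so these levels do not count cells of other types. The part of these markers in the results below was not tested.

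All 101 read-through genes are protein-coding genes of GENCODE release 29 (GRCh38), and the parents lie on the same strand of the same chromosome for 100 of them. The exception is BORCS7-ASMT on chromosome 10, whose exons overlap those of AS3MT, an arsenic methyltransferase gene, instead of ASMT. The gap between the end of the upstream parent and the start of the downstream parent had a median of 5389 bases. The exons of a read-through gene were largely those of its parents. A median of 97.7% of the exon bases of a read-through gene also belonged to an exon of a parent, 72 genes shared at least 90%, and 37 shared every base. The median read-through gene had 82 exon bases of its own among 2417. A read from a shared exon fits both the read-through gene and the parent, and the way such reads were assigned is not given in the sources used here.

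The splice junction from an exon of the upstream parent to an exon of the downstream parent sets a read-through transcript apart. Such a junction, absent from both parents, was annotated for 94 of the 101 genes, and the 60 bases around it occurred in no transcript of another gene for all 94. The transcript chosen to show the junction was annotated as protein-coding for 59 genes, as a target of nonsense-mediated decay for 31 and as a retained intron for 4. The junctions below belong to read-through genes described in the results and lie within coding sequence. The last 30 bases of the upstream exon are in lower case and the first 30 bases of the downstream exon in capitals, read 5′ to 3′ on the strand of the gene (GENCODE release 29, GRCh38).
NME1-NME2: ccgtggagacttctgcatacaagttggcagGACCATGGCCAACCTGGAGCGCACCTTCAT
PMF1-BGLAP: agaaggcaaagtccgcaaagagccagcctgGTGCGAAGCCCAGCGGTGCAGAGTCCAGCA
PPAN-P2RY11: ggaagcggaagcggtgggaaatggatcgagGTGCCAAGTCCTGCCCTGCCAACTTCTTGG
RPL36A-HNRNPH2: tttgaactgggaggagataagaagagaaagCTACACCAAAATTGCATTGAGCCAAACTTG
ISY1-RAB43: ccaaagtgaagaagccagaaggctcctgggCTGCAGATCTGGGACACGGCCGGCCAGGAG
SENP3-EIF4A1: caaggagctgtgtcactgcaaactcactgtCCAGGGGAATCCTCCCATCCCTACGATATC
BIVM-ERCC5: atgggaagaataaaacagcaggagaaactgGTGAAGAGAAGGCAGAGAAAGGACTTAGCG

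In NME1-NME2 (chromosome 17, plus strand) the exon that ends at 51161272 is joined to the exon that starts at 51166827. In PMF1-BGLAP (chromosome 1, plus strand) the junction joins 156233728 to 156242553. The PPAN-P2RY11 junction (chromosome 19, plus strand) joins 10111022 to 10113633, and that of RPL36A-HNRNPH2 (chromosome X, plus strand) joins 101395457 to 101411936. In ISY1-RAB43 (chromosome 3, minus strand) 129130088 is joined to 129095169. The transcripts shown for SENP3-EIF4A1 (chromosome 17, plus strand, 7571479 to 7572284) and BIVM-ERCC5 (chromosome 13, plus strand, 102822159 to 102853757) are annotated as targets of nonsense-mediated decay. In 52 of the 101 genes, at least one transcript reads coding sequence of both parents in frame, among them NME1-NME2 and PPAN-P2RY11.

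The read-through genes differed widely in how often they were counted. Of the 101 genes, 53 had counts in every library, 32 had counts in some libraries and 16 were at 0 in all 6. A filter on low counts (edgeR's filterByExpr) left 64 read-through genes, 171 listings of parent genes and 93 summed loci to test. These are members that passed through their counts, not all members. Huh7 LR was set against Huh7 P by the quasi-likelihood test of edgeR, the p-values were adjusted by the Benjamini-Hochberg method over every gene and locus tested, and a gene passed at an adjusted p under 0.05.

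In Huh7 LR, 8 of the 64 tested read-through genes were higher and 4 were lower, against 23.3% of all 17531 genes and loci tested that were higher and 22.4% that were lower. Thus 18.8% of the tested read-through genes passed in either direction, against 45.7% of all tested. Of the parents, 32 of 171 were higher and 47 were lower. When the counts of each locus were summed, 20 of 93 loci were higher and 24 were lower, against 23.6% higher and 22.6% lower in the table with summed loci. At a stricter call (adjusted p under 0.001 and above 2-fold), 1 read-through gene, 8 parents and 3 summed loci passed, against 6.21% of single genes and 6.41% of the table with summed loci. The CPM of the groups did not overlap for 11 of 64 read-through genes, 83 of 171 parents and 53 of 93 summed loci, against 55.9% of all single genes and 56.1% of the table with summed loci. Without Huh7 LR replicate 1, 9 read-through genes were lower, and without Huh7 LR replicate 2, 8 were lower.

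The spread between replicates was larger for the read-through genes than for their parents or the summed loci. The replicate SD, taken within each group on log2 CPM, had a median of 0.606 over the read-through genes, 0.141 over the parents, 0.0894 over the summed loci and 0.142 over all genes tested. It was above 1 for 21 of 64 read-through genes (32.8%), for 8 of 171 parents and for none of the 93 summed loci, whose highest value was 0.666. Over all genes tested, 3.28% were above 1. The replicate SD of the summed locus was below that of the read-through gene for 64 of 64, and the sum contains the read-through counts. The read-through SD was above those of all its tested parents for 48 of 63.

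The spread was also compared at matched levels. Among genes with a mean of 1 to 10 CPM, the median replicate SD was 0.526 over 25 read-through genes and 0.201 over all genes. At 10 to 100 CPM it was 0.446 over 16 read-through genes, 0.104 over all genes and 0.0972 over 55 summed loci. The median was 0.693 over the 13 tested read-through genes whose exon bases were all shared with a parent, 0.618 over 34 genes with fewer than 300 exon bases of their own, and 0.430 over 17 genes with 300 or more. These groups also differed in level, with median values of 4.22, 2.24 and 5.55 CPM, and the part of exon sharing in the spread was not tested.

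**Figure D1:**
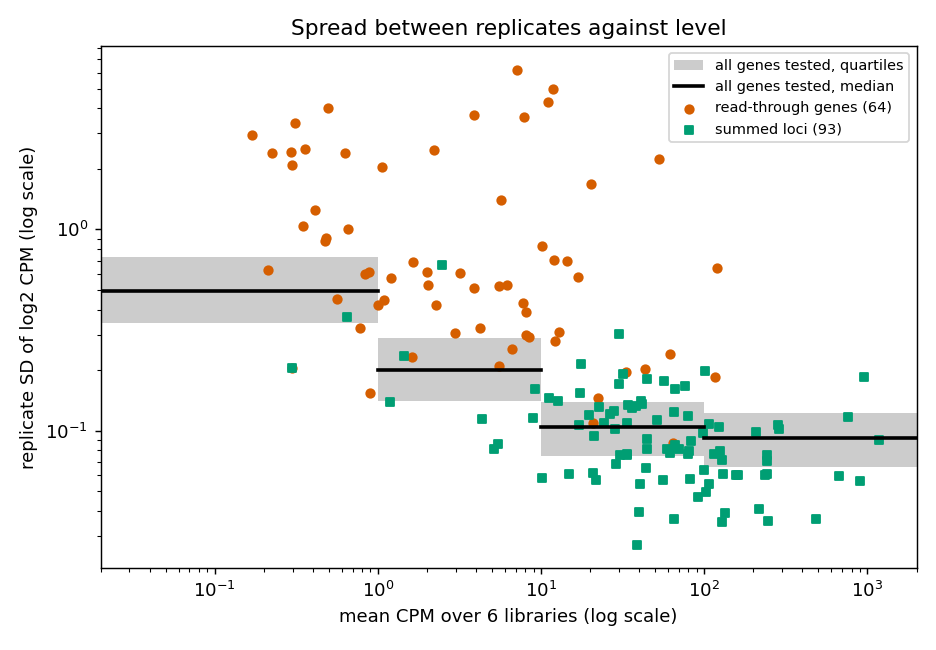
Replicate SD of log2 CPM (vertical, log scale) against mean CPM over the 6 libraries (horizontal, log scale), with 1 point per tested read-through gene (orange) or summed locus (green squares), and the quartiles (grey band) and median (black line) of all genes tested in 4 ranges of CPM. Of the 64 read-through points, 21 lie above an SD of 1, and none of the 93 summed loci does.

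Some read-through genes were at 0 in one replicate and well counted in another replicate of the same line. Among the 70 read-through genes that reached 30 counts in a library, 16 (22.9%) were at 0 in one replicate and at 30 or more in another library of the same group, against 0.610% of all 16393 genes and loci that reached 30 counts. Among 168 parents the same was seen for 1, TNFSF13. The 5 read-through genes with the largest replicate SD among those tested were SPECC1L-ADORA2A, RPL36A-HNRNPH2, PPAN-P2RY11, RNASEK-C17orf49 and ISY1-RAB43.

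SPECC1L-ADORA2A joins SPECC1L, which encodes a cytoskeletal protein, to ADORA2A, which encodes an adenosine receptor. It was counted 1255, 929 and 0 times in the Huh7 P libraries and 0, 729 and 0 times in the Huh7 LR libraries. ADORA2A was counted 173, 117 and 878 times in Huh7 P and 937, 717 and 1056 times in Huh7 LR. Within Huh7 P, ADORA2A was high in replicate 3, the library in which the read-through gene was at 0. The sum over the locus was 6495, 5805 and 6334 counts in Huh7 P against 5975, 7626 and 7090 counts in Huh7 LR. On the log2 scale, the replicate SD was 6.22 for the read-through gene, 1.11 for ADORA2A and 0.0972 for the sum. Neither the read-through gene (adjusted p = 0.401) nor the sum (log2 fold change 0.11 ± 0.08 (SE), adjusted p = 0.26) passed the test. Without Huh7 LR replicate 2, which left Huh7 LR at 0, the read-through gene passed as lower (adjusted p = 0.013), and without Huh7 LR replicate 1 the sum passed as higher (adjusted p = 0.0494). With all libraries, limma-trend on log2(FPKM + 0.1) gave the sum a log2 fold change of 0.33 (adjusted p = 0.0099), and on log2(FPKM + 1) one of 0.31 (adjusted p = 0.00971).

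RPL36A-HNRNPH2 joins a ribosomal protein gene to the gene of an RNA-binding protein. The read-through gene had 1523, 0 and 1232 counts in Huh7 P against 934, 51 and 1098 counts in Huh7 LR. In both groups replicate 2 was low. Whether the replicate numbers pair the samples was not tested for the read-through genes alone. RPL36A and the read-through gene together stood at 207.9, 217.2 and 258.8 CPM in Huh7 P. In Huh7 LR they stood at 173.3, 169.4 and 181.5 CPM. Both parents fell in Huh7 LR, RPL36A by 0.38 ± 0.09 (SE) and HNRNPH2 by 0.40 ± 0.09 (SE) on the log2 scale (adjusted p = 0.00485 and 0.00301). The summed locus had 20770, 19599 and 23030 counts in Huh7 P against 15540, 16794 and 17373 counts in Huh7 LR, without overlap. It fell by 0.39 ± 0.08 (SE) on the log2 scale (adjusted p = 0.0022), while the read-through gene did not pass (adjusted p = 0.813).

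PPAN-P2RY11 joins PPAN, a ribosome biogenesis gene, to P2RY11, a nucleotide receptor gene. It was counted 1339, 1063 and 499 times in Huh7 P and 938, 556 and 0 times in Huh7 LR. P2RY11 was counted 282, 240 and 554 times in Huh7 P and 419, 800 and 1071 times in Huh7 LR, so that within each group it was highest in the library where the read-through gene was lowest. P2RY11 rose by 1.04 ± 0.34 (SE) on the log2 scale (adjusted p = 0.0264), a call that was lost in DESeq2's Wald test (adjusted p = 0.0991) and without Huh7 P replicate 1, Huh7 P replicate 2, Huh7 LR replicate 2 or Huh7 LR replicate 3 (adjusted p of 0.105, 0.097, 0.0551 and 0.129). The read-through gene and P2RY11 together stood at 22.6, 21.1 and 16.1 CPM in Huh7 P and at 20.8, 19.4 and 15.7 CPM in Huh7 LR, and these ranges overlap. PPAN fell by 0.42 ± 0.10 (SE) (adjusted p = 0.00638), and so did the summed locus, by 0.34 ± 0.07 (SE) (adjusted p = 0.00289). The sum of PPAN and P2RY11 alone did not pass (adjusted p = 0.114).

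ISY1-RAB43 joins ISY1, a splicing factor gene, to RAB43, a small GTPase gene. It had 249, 0 and 0 counts in Huh7 P against 502, 669 and 172 counts in Huh7 LR (adjusted p = 0.0839). It passed as higher by limma-trend on log2(FPKM + 0.1) or log2(FPKM + 1) with all libraries (adjusted p of 0.0156 and 0.0157), and without Huh7 P replicate 1, the library of that line with counts (adjusted p = 0.000174). RAB43 had 5521, 4389 and 4328 counts in Huh7 P against 7065, 6874 and 7389 counts in Huh7 LR, a rise of 0.56 ± 0.08 (SE) on the log2 scale (adjusted p = 0.000184). For ISY1 and the read-through gene together, the Huh7 P libraries stood at 37.0, 39.9 and 40.3 CPM. The Huh7 LR libraries stood at 38.5, 48.3 and 39.6 CPM, which overlap with Huh7 P. RNASEK-C17orf49, which joins a ribonuclease gene to the gene of a chromatin protein, had 0, 92 and 43 counts in Huh7 P against 53, 0 and 0 in Huh7 LR. RNASEK itself had 2719 to 4613 counts over the 6 libraries, and neither RNASEK-C17orf49, its parents nor the sum passed the test. The read-through gene passed as lower without Huh7 LR replicate 1, the library of that line with counts (adjusted p = 0.0164), and the sum passed as higher without Huh7 P replicate 1 (adjusted p = 0.0251).

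**Figure D2:**
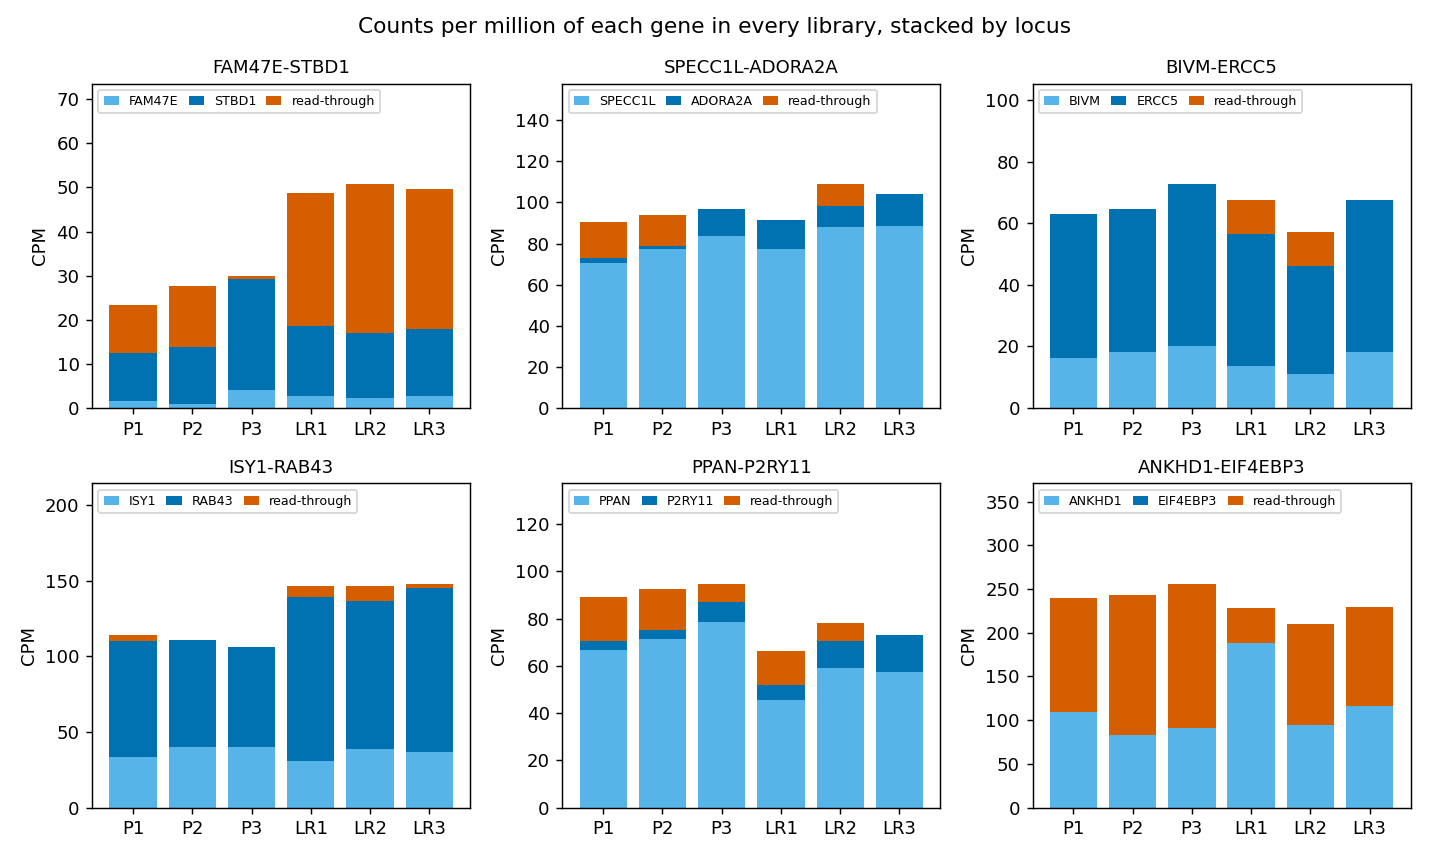
CPM (vertical) of the upstream parent, the downstream parent and the read-through gene, stacked for each of the 6 libraries (P1 to P3 are Huh7 P, LR1 to LR3 are Huh7 LR) at 6 loci. The orange read-through part is absent or close to 0 in some replicates of 5 of the loci, while the full height of the bars, the sum, varies less.

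The read-through genes with the highest mean CPM included NME1-NME2, ANKHD1-EIF4EBP3, PALM2-AKAP2, RBM14-RBM4, SENP3-EIF4A1, HNRNPUL2-BSCL2, BORCS8-MEF2B, PPT2-EGFL8 and FAM47E-STBD1. Of these, PALM2-AKAP2 and FAM47E-STBD1 were higher in Huh7 LR, NME1-NME2 was lower and the other 6 did not pass the test.

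ANKHD1-EIF4EBP3 joins ANKHD1, which encodes an ankyrin-repeat protein, to EIF4EBP3, which encodes a repressor of translation initiation. It was counted 9391, 9901 and 10787 times in Huh7 P and 2550, 8051 and 7691 times in Huh7 LR. ANKHD1 was counted 7827, 5100 and 5929 times in Huh7 P and 12291, 6657 and 7931 times in Huh7 LR, and its highest library, Huh7 LR replicate 1, was the lowest of the read-through gene. EIF4EBP3 had at most 3 counts in any library. The groups did not overlap for the read-through gene, whose log2 fold change of -0.77 ± 0.30 (SE) missed the threshold (adjusted p = 0.0557). It passed without Huh7 LR replicate 1, Huh7 LR replicate 2 or Huh7 LR replicate 3, with adjusted p of 0.00481, 0.0326 and 0.0446, and the change without Huh7 LR replicate 1 was -0.42. With all libraries it passed as lower with no filter on counts (adjusted p = 0.0327), with at least 10 counts in every library (0.0448) and by limma-trend on log2(FPKM + 0.1) or log2(FPKM + 1) (0.047 and 0.0428). The sum, at 14711 to 17221 counts, did not pass (adjusted p = 0.101).

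SENP3-EIF4A1 joins SENP3, a SUMO protease gene, to EIF4A1, the gene of an RNA helicase of translation initiation. It was counted 3999, 711 and 357 times in Huh7 P and 14623, 796 and 533 times in Huh7 LR. A single library, Huh7 LR replicate 1, stood far above the other two of its group, and the log2 fold change of 1.74 ± 1.11 (SE) (adjusted p = 0.228) became -1.34 without it (adjusted p = 0.154). Both parents were lowest in that library, SENP3 at 2762 counts against 5753 to 6936 in the other 5, and EIF4A1 at 44480 counts against 61981 to 83361. The sum fell by 0.40 ± 0.08 (SE) on the log2 scale (adjusted p = 0.00118).

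RBM14-RBM4 joins RNA-binding protein genes. It had 3859, 3360 and 3735 counts in Huh7 P against 3397, 5804 and 4752 in Huh7 LR (log2 fold change 0.31 ± 0.13 (SE), adjusted p = 0.0809), and it passed as higher in DESeq2's Wald test (adjusted p = 0.0371) and without Huh7 LR replicate 1 (0.47, adjusted p = 0.000893). RBM14 had 7440, 6525 and 6105 counts in Huh7 P against 4920, 5690 and 5563 in Huh7 LR, and fell by 0.35 ± 0.07 (SE) on the log2 scale (adjusted p = 0.00272), while RBM4 (adjusted p = 0.555) and the sum (adjusted p = 0.499) did not pass. RBM14 and the read-through gene together, at 150.5 to 160.2 CPM in Huh7 P and 127.6 to 164.1 CPM in Huh7 LR, overlapped. HNRNPUL2-BSCL2 joins the gene of a nuclear RNA-binding protein to BSCL2, which encodes the lipid droplet protein seipin, and had 2507 to 3221 counts over the 6 libraries (adjusted p = 0.496). BSCL2 fell by 0.65 ± 0.22 (SE) on the log2 scale (adjusted p = 0.0292), with 557 to 801 counts in Huh7 P and 286 to 624 in Huh7 LR, which overlap in counts and not in CPM. That call was lost without Huh7 P replicate 1, Huh7 P replicate 3, Huh7 LR replicate 1 or Huh7 LR replicate 3 (adjusted p of 0.104, 0.0654, 0.0681 and 0.0988). BSCL2 and the read-through gene together, at 48.6 to 61.2 CPM in Huh7 P and 42.4 to 52.2 CPM in Huh7 LR, overlapped.

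BORCS8-MEF2B joins the gene of a lysosome-positioning subunit to that of a transcription factor and had 1547, 1177 and 1417 counts in Huh7 P against 1352, 1857 and 1607 counts in Huh7 LR (adjusted p = 0.17). It passed as higher without Huh7 LR replicate 1 (adjusted p = 0.0421) and by limma-trend on log2(FPKM + 0.1) or log2(FPKM + 1) with all libraries (0.0453 and 0.0452). BORCS8 had 1587, 1397 and 1194 counts in Huh7 P against 929, 1301 and 1208 in Huh7 LR, which overlap, and fell by 0.32 ± 0.12 (SE) on the log2 scale (adjusted p = 0.0496). That call was lost with no filter on counts (adjusted p = 0.0521) and without Huh7 P replicate 1, Huh7 P replicate 2, Huh7 LR replicate 1 or Huh7 LR replicate 3 (0.145, 0.183, 0.141 and 0.076). BORCS8 and the read-through gene together stood at 39.9 to 43.7 CPM in Huh7 P and 35.0 to 45.1 CPM in Huh7 LR, which overlap. PPT2-EGFL8 joins a lysosomal thioesterase gene to that of an EGF-like protein. It had 1601, 1347 and 1330 counts in Huh7 P against 1274, 1303 and 1526 in Huh7 LR (log2 fold change -0.09 ± 0.09 (SE), adjusted p = 0.455). With replicate SDs of 0.145 and 0.109, BORCS8-MEF2B and PPT2-EGFL8 were among the 3 steadiest of the 64 tested read-through genes, the third being PALM2-AKAP2 at 0.0869. EGFL8, with 20 to 56 counts in Huh7 P and 9 to 14 in Huh7 LR, fell by 1.65 ± 0.44 (SE) on the log2 scale (adjusted p = 0.0105), and without Huh7 P replicate 1 it did not pass (adjusted p = 0.0642). Together with the far more abundant read-through gene, EGFL8 stood at 23.1, 22.2 and 20.9 CPM in Huh7 P and at 19.8, 18.8 and 22.5 CPM in Huh7 LR, which overlap.

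PALM2-AKAP2 joins PALM2, of the paralemmin family, to AKAP2, whose protein anchors protein kinase A. It had 3484, 2983 and 2888 counts in Huh7 P against 5792, 5591 and 5370 counts in Huh7 LR. The groups did not overlap, and the gene rose by 0.81 ± 0.08 (SE) on the log2 scale (adjusted p = 1.14e-05). Its parents rose as well, PALM2 by 0.88 ± 0.21 (SE) and AKAP2 by 0.49 ± 0.11 (SE), and the sum rose by 0.69 ± 0.07 (SE) (adjusted p = 1.14e-05).

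NME1-NME2 joins genes of nucleoside diphosphate kinases, enzymes that supply nucleoside triphosphates. It had 8872, 7517 and 10414 counts in Huh7 P against 5927, 7599 and 6236 counts in Huh7 LR, so 1 library of Huh7 LR lay inside the range of Huh7 P in counts, while the CPM of the groups did not overlap. It fell by 0.48 ± 0.11 (SE) on the log2 scale (adjusted p = 0.00484). NME1 fell by 0.97 ± 0.12 (SE) and NME2 by 0.56 ± 0.09 (SE) (adjusted p = 6.27e-05 and 0.000353), both without overlap in counts. Per length, the read-through gene stood at 108 to 140 FPKM in Huh7 P and 83.5 to 97.5 FPKM in Huh7 LR, NME1 at 208 to 230 and 90.9 to 131 FPKM, and NME2 at 450 to 573 and 347 to 372 FPKM (FPKM values are scaled for transcript length and library size).

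FAM47E-STBD1 joins FAM47E to STBD1, whose protein binds glycogen. It was counted 781, 854 and 46 times in Huh7 P and 1978, 2363 and 2167 times in Huh7 LR. STBD1 was counted 784, 790 and 1649 times in Huh7 P and 1022, 1027 and 1036 times in Huh7 LR. In Huh7 P replicate 3 the read-through gene was lowest and STBD1 highest, and the sum of 1956 counts was close to the 1671 and 1702 of the other two. The read-through gene rose by 1.91 ± 0.61 (SE) on the log2 scale (adjusted p = 0.0243), and the sum, with 3183, 3554 and 3386 counts in Huh7 LR, rose by 0.89 ± 0.09 (SE) (adjusted p = 1.76e-05). Without Huh7 P replicate 3 the read-through gene rose by 1.37, and its call was lost in DESeq2's Wald test (adjusted p = 0.109) and without Huh7 P replicate 1, Huh7 LR replicate 2 or Huh7 LR replicate 3 (adjusted p of 0.0507, 0.0501 and 0.0549). The sum of FAM47E and STBD1 alone, without the read-through counts, did not pass (log2 fold change -0.05, adjusted p = 0.893).

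A further 8 read-through genes that passed the test had lower levels. ZNF670-ZNF695, from zinc finger genes, was the 1 read-through gene that passed the stricter call. It had 109, 90 and 100 counts in Huh7 P against 21, 17 and 21 counts in Huh7 LR, and fell by 2.36 ± 0.26 (SE) on the log2 scale (adjusted p = 3.42e-05). ZNF670 fell by 1.00 ± 0.10 (SE) and ZNF695 by 1.40 ± 0.15 (SE) (adjusted p = 2.07e-05 and 2.97e-05). The whole locus was thus lower in Huh7 LR, at 1742 to 2152 summed counts in Huh7 P and 831 to 919 in Huh7 LR, a fall of 1.16 ± 0.09 (SE) on the log2 scale (adjusted p = 2.31e-06).

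PMF1-BGLAP joins PMF1, a kinetochore gene, to BGLAP, the gene of the bone protein osteocalcin. It had 862, 793 and 482 counts in Huh7 P against 397, 416 and 276 in Huh7 LR, and fell by 1.00 ± 0.21 (SE) on the log2 scale (adjusted p = 0.0029). PMF1 fell by 0.49 ± 0.11 (SE) (adjusted p = 0.00442), and BGLAP, with 1 to 20 counts, was not tested. ZNF559-ZNF177 had 249, 147 and 175 counts in Huh7 P against 35, 94 and 107 in Huh7 LR and fell by 1.30 ± 0.32 (SE) (adjusted p = 0.00704). Neither ZNF559 (adjusted p = 0.358), ZNF177 (adjusted p = 0.906) nor the sum of 960 to 1063 counts (adjusted p = 0.601) passed the test.

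IQCJ-SCHIP1 had 663, 513 and 738 counts in Huh7 P against 860, 1476 and 935 in Huh7 LR and rose by 0.73 ± 0.18 (SE) on the log2 scale (adjusted p = 0.00647). Its upstream parent IQCJ was at 0 in every library. SCHIP1, the gene of a cytoskeleton-associated protein, had 303 to 409 counts in 5 libraries and 14 in Huh7 LR replicate 2, the library in which the read-through gene was highest. The sum rose by 0.40 ± 0.11 (SE) (adjusted p = 0.011). Without Huh7 P replicate 1 or Huh7 P replicate 2 the call of the sum was lost (adjusted p of 0.0613 and 0.0596), and without the read-through counts its log2 fold change was -0.49 (adjusted p = 0.576).

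CHKB-CPT1B joins CHKB, a choline kinase gene, to CPT1B, the muscle form of carnitine palmitoyltransferase. It had 482, 322 and 536 counts in Huh7 P against 722, 676 and 523 in Huh7 LR, which overlap in counts and in CPM, and rose by 0.50 ± 0.18 (SE) on the log2 scale (adjusted p = 0.0416). Its parents rose without overlap, CHKB by 0.36 ± 0.08 (SE) and CPT1B by 0.77 ± 0.09 (SE) (adjusted p = 0.00459 and 6.96e-05), and so did the sum, by 0.53 ± 0.07 (SE). Without any 1 of 4 libraries (Huh7 P replicates 1 and 2, Huh7 LR replicates 1 and 2) the read-through gene no longer passed, with adjusted p of 0.0976, 0.158, 0.128 and 0.0788.

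For ZHX1-C8orf76 and MROH7-TTC4 the read-through gene and the summed locus passed in opposite directions. ZHX1-C8orf76, whose upstream parent encodes a homeobox transcription factor, had 55, 41 and 28 counts in Huh7 P against 121, 76 and 81 in Huh7 LR and rose by 1.14 ± 0.31 (SE) on the log2 scale (adjusted p = 0.0103). ZHX1, with 3906 to 4320 counts in Huh7 P and 3137 to 3638 in Huh7 LR, fell by 0.35 ± 0.08 (SE), and the sum fell by 0.24 ± 0.07 (SE) (adjusted p = 0.0191). The call of that sum was lost without Huh7 P replicate 2 or Huh7 P replicate 3 (adjusted p of 0.0813 and 0.0884), and limma-trend on FPKM gave it a log2 fold change of -0.07 (adjusted p = 0.478). C8orf76 and the read-through gene together stood at 8.47 to 9.29 CPM in Huh7 P and 10.8 to 11.6 CPM in Huh7 LR, without overlap.

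MROH7-TTC4, whose downstream parent encodes a co-chaperone, had 14, 20 and 0 counts in Huh7 P against 155, 18 and 42 in Huh7 LR and rose by 2.64 ± 0.90 (SE) on the log2 scale (adjusted p = 0.0327). Without Huh7 LR replicate 1 its log2 fold change was 1.33 (adjusted p = 0.238), and it did not pass without Huh7 P replicate 1 or 3 (adjusted p of 0.0848 and 0.0834) or in DESeq2's Wald test (adjusted p = 0.154). TTC4 fell by 0.38 ± 0.11 (SE) (adjusted p = 0.0176), and did not pass without Huh7 P replicate 2, Huh7 P replicate 3 or Huh7 LR replicate 3 (adjusted p of 0.0748, 0.0706 and 0.0692). The sum fell by 0.29 ± 0.10 (SE) (adjusted p = 0.0322), a call that was lost without Huh7 P replicate 2, Huh7 P replicate 3, Huh7 LR replicate 1 or Huh7 LR replicate 3 (adjusted p of 0.131, 0.127, 0.0705 and 0.123).

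WRB-SH3BGR joins WRB, a gene for the insertion of tail-anchored membrane proteins, to SH3BGR. It had 52, 18 and 43 counts in Huh7 P against 67, 121 and 60 in Huh7 LR and rose by 1.11 ± 0.37 (SE) (adjusted p = 0.0309), a call that was lost without Huh7 P replicate 2, Huh7 P replicate 3 or Huh7 LR replicate 2 (adjusted p of 0.0928, 0.0557 and 0.136). Neither WRB (adjusted p = 0.0758) nor the sum (adjusted p = 0.0593) passed the test, but the sum passed as higher without Huh7 P replicate 3 (adjusted p = 0.0298), with at least 10 counts in every library (0.0433) and by limma-trend on log2(FPKM + 0.1) or log2(FPKM + 1) (0.0174 and 0.0171).

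Of the 12 read-through genes that passed, the summed locus passed in the same direction for 8, in the opposite direction for 2 and not at all for 2. The sum contains the read-through counts, so a shared direction is partly built in, and at 2 of the 8 loci, FAM47E-STBD1 and IQCJ-SCHIP1, the log2 fold change of the parents alone was below 0 (-0.05 and -0.49).

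**Figure D3:**
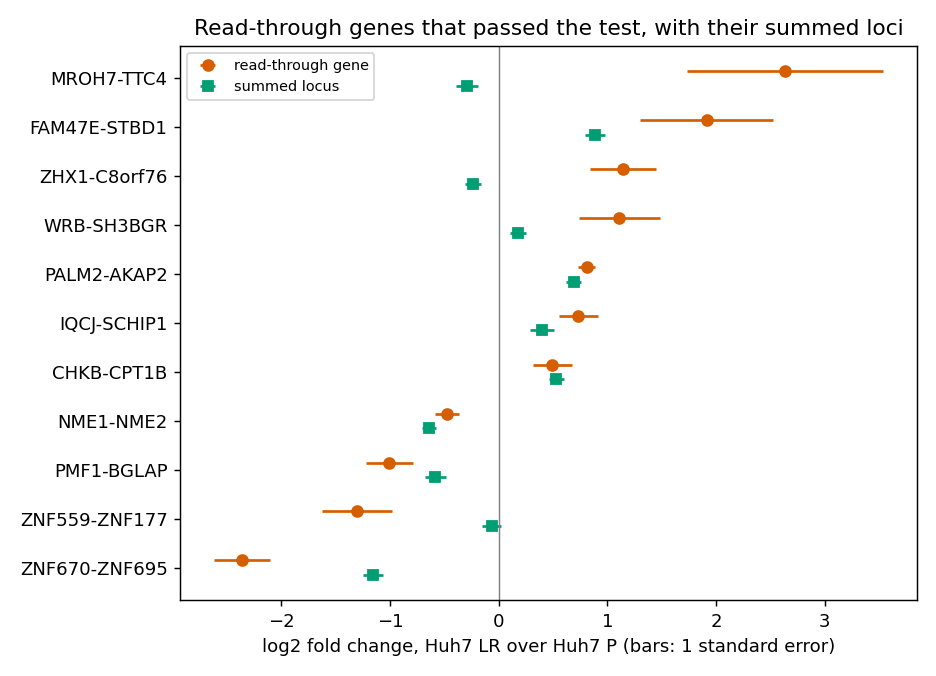
Log2 fold changes of Huh7 LR over Huh7 P (horizontal) with 1 standard error for 11 of the 12 read-through genes that passed the test (orange) and for their summed loci (green squares). The standard errors of the sums are smaller, and the points of MROH7-TTC4 and ZHX1-C8orf76 lie on opposite sides of 0 from their sums.

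The read-through share was the share of the summed locus counts that was assigned to the read-through gene. It was computed for the 90 loci with at least 30 counts in every library and had a median of 2.94%. It was below 1% for 32 loci, above 10% for 27 and above 50% for 4, and the highest mean share was 72.1%. In 13 loci (14.4%) the shares of the groups did not overlap, with 9 higher and 4 lower in Huh7 LR. Among 1338 other pairs of genes that share exons on the same strand, the share of the less abundant gene did not overlap between the groups for 24.6%. Those pairs shared any number of exon bases and their sum held only the pair, so the measures differ. Of the 90 loci, 81 had a share above 0 in a library, and the rest could not differ. With 3 samples against 3, the exact permutation test (two-sided) cannot give a p below 0.1, so no share could pass 0.05, and all 13 loci reached 0.1. Over 25 loci that were named by rule (the highest levels, the calls, the largest replicate SDs and the largest share differences), the 95% Wilson interval of a share in 1 library extended at most 3.84 percentage points above the share and 3.47 below it, which covers counting error only.

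The 5 loci whose mean shares differed most without overlap were FAM47E-STBD1, IQCJ-SCHIP1, CCL15-CCL14, BIVM-ERCC5 and RTEL1-TNFRSF6B. The share of FAM47E-STBD1 was 46.7%, 50.2% and 2.35% in Huh7 P against 62.1%, 66.5% and 64.0% in Huh7 LR. Thus 1 library of Huh7 P stood apart from the other two, and the Huh7 LR libraries were alike. The share of IQCJ-SCHIP1 was 68.6%, 58.4% and 65.1% in Huh7 P against 71.5%, 99.1% and 69.6% in Huh7 LR.

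CCL15-CCL14 joins chemokine genes. The read-through gene had 215, 100 and 136 counts in Huh7 P against 175, 116 and 80 in Huh7 LR and did not pass the test (adjusted p = 0.482). Both parents rose, CCL15 from 365 to 419 counts in Huh7 P to 741 to 1081 in Huh7 LR (by 1.22 ± 0.13 (SE) on the log2 scale, adjusted p = 2.67e-05) and CCL14 from 17 to 40 counts to 70 to 99 (by 1.78 ± 0.33 (SE), adjusted p = 0.00116). CCL14 and the read-through gene together stood at 3.55, 1.91 and 2.34 CPM in Huh7 P and at 3.76, 3.07 and 2.54 CPM in Huh7 LR, which overlap, whereas CCL15 and the read-through gene together, at 7.54 to 8.83 and 14.1 to 17.1 CPM, did not. The share of the read-through gene was 25.9% ± 5.64 (SD, n = 3) in Huh7 P and 11.2% ± 5.78 (SD, n = 3) in Huh7 LR. The sum rose by 0.99 ± 0.11 (SE) (adjusted p = 2.89e-05).

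BIVM-ERCC5 joins BIVM to ERCC5, an endonuclease gene of nucleotide excision repair. It had 0, 0 and 1 counts in Huh7 P against 727, 786 and 4 counts in Huh7 LR, and did not pass the filter on low counts. The groups did not overlap, and Huh7 LR replicate 3 was close to the Huh7 P libraries. A share of 0 in Huh7 P replicate 1 allows up to 0.0663%. BIVM had 1121 to 1323 counts in Huh7 P against 897, 762 and 1238 in Huh7 LR, and ERCC5 had 2871 to 3428 counts in Huh7 P against 2778, 2463 and 3361 in Huh7 LR. In Huh7 LR both parents were thus lower in the libraries in which the read-through gene was high than in the one in which it was close to 0. The sum of 3992 to 4752 counts did not pass the test (log2 fold change -0.06 ± 0.09 (SE), adjusted p = 0.6).

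RTEL1-TNFRSF6B joins RTEL1, a helicase gene of telomere maintenance, to TNFRSF6B, the gene of a decoy receptor. The read-through gene had 500, 239 and 207 counts in Huh7 P against 295, 595 and 427 in Huh7 LR (adjusted p = 0.218), and it passed as higher without Huh7 P replicate 1 (adjusted p = 0.0222). Its share was 11.8% ± 4.63 (SD, n = 3) in Huh7 P and 23.0% ± 4.95 (SD, n = 3) in Huh7 LR. RTEL1 fell from 2064 to 2354 counts in Huh7 P to 1265 to 1451 in Huh7 LR, by 0.72 ± 0.07 (SE) on the log2 scale (adjusted p = 2.5e-05). TNFRSF6B fell by 0.75 ± 0.24 (SE) (adjusted p = 0.0249), and did not pass without Huh7 P replicate 3, Huh7 LR replicate 1 or Huh7 LR replicate 3 (adjusted p of 0.102, 0.0562 and 0.0567). The read-through gene and TNFRSF6B together stood at 8.21, 5.01 and 4.73 CPM in Huh7 P and at 5.2, 9.35 and 7.07 CPM in Huh7 LR, which overlap. Most of that value is the read-through gene, whose own spread can hide a change of TNFRSF6B. The overlap therefore cannot decide on the fall of TNFRSF6B.

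**Figure D4:**
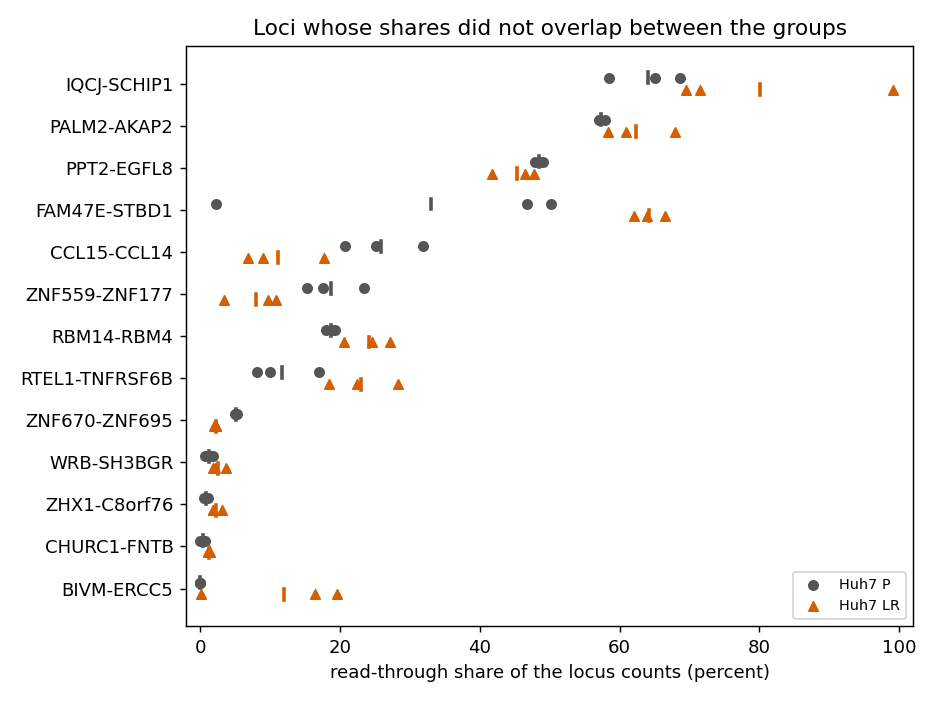
Share of the locus counts assigned to the read-through gene (horizontal, percent) in each of the 3 Huh7 P libraries (grey circles) and the 3 Huh7 LR libraries (orange triangles), with short vertical lines at the means, for the 13 loci whose groups did not overlap. In FAM47E-STBD1 1 grey point lies at 2.35%, and in IQCJ-SCHIP1 1 orange point lies at 99.1%.

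Genes of 3′ end processing and termination, the machinery that ends transcripts at a poly(A) site, were examined as a list of 28 genes. All 28 were tested, 14 were lower in Huh7 LR and 14 did not pass, against 22.4% of all genes and loci tested that were lower. With edgeR's quasi-likelihood test 0 were higher, also at an unadjusted p under 0.05, DESeq2 called 0 higher and 14 lower, and limma-trend on FPKM called 0 higher and 13 lower. The median log2 fold change of the list was -0.20, against 0.00 over all genes tested, and no member passed the stricter call. Their summed level was 3420 to 3509 CPM in Huh7 P and 2796 to 2956 CPM in Huh7 LR.

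CSTF3, a subunit of the cleavage stimulation factor, fell from 93.6, 94.8 and 100.1 CPM in Huh7 P to 55.2, 52.2 and 58.2 CPM in Huh7 LR, by 0.80 ± 0.07 (SE) on the log2 scale (adjusted p = 6.97e-06). RBBP6, a cleavage factor, fell from 77.0 to 85.9 CPM to 48.3 to 54.5 CPM, and PAPOLA, the poly(A) polymerase, from 385.3 to 412.9 CPM to 238.9 to 287.7 CPM. NUDT21, a subunit that binds upstream of the cleavage site, fell by 0.53 ± 0.08 (SE), CPSF2, of the complex that recognises the poly(A) signal, by 0.49 ± 0.07 (SE), and RPRD1A, which binds the tail of the polymerase, by 0.52 ± 0.10 (SE). Of the torpedo pathway, which degrades RNA behind the cleavage site, XRN2 fell from 246.6 to 271.5 CPM to 219.9 to 232.3 CPM (adjusted p = 0.0255). The scaffold SYMPK, at 224.7 to 230.4 CPM in Huh7 P and 210.2 to 237.4 CPM in Huh7 LR, did not pass (adjusted p = 0.628). The tested read-through genes had a median log2 fold change of 0.09 beside the -0.20 of this list, and a relation between them was not tested.

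**Figure D5:**
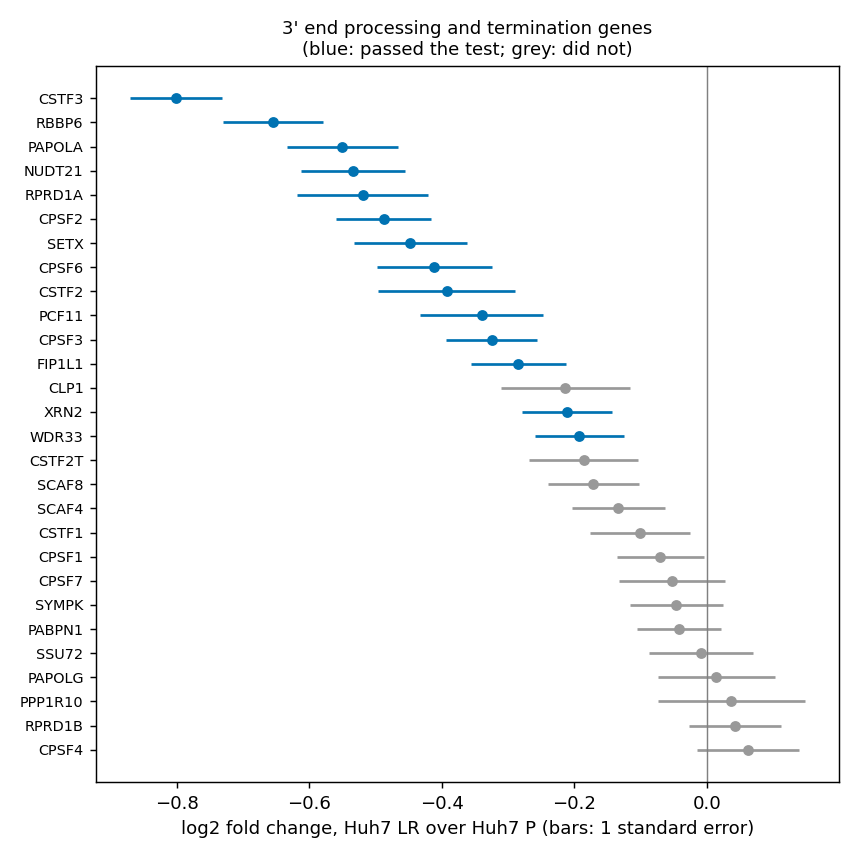
Log2 fold changes of Huh7 LR over Huh7 P (horizontal) with 1 standard error for the 28 genes of 3′ end processing and termination, in blue where the test was passed and in grey where it was not. The 14 blue points all lie below 0, from -0.80 for CSTF3 to -0.19 for WDR33.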

How the data were processed

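Poly(A) RNA of 3 Huh7 P and 3 Huh7 LR samples was sequenced by a company from NEBNext Ultra libraries, and whether counting used strand is not given in the sources used here. The authors deposited 1 table with whole-number read counts per gene that were not normalised, and FPKM values that the authors scaled for transcript length and library size. The submitters' processing notes name TopHat2, Cufflinks, DESeq and the mouse build mm10, whereas the identifiers are human. An extract protocol in the labels describes an insect, and the symbols and coordinates used here were matched to GENCODE release 29 (GRCh38).

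The analysis used edgeR 4.0.16 under R 4.3.3 (filterByExpr, minimum count 10 and minimum total 15, TMM factors of 0.977 to 1.03, quasi-likelihood test without replicate block, Benjamini-Hochberg adjustment over 17531 genes and loci). For summed loci the counts of the read-through genes and their parents replaced the single entries, which left 17389 to test. Fold changes are Huh7 LR over Huh7 P with their standard errors (SE), and values per library are TMM-scaled CPM or counts as deposited. The replicate SD is the root mean square of the SDs of both groups on log2 CPM with a prior count of 0.5. Shares were taken for loci with at least 30 counts in every library. IGF2 is listed under 2 identifiers, both of which were kept. Over all genes and loci tested, the deviations of samples with the same replicate number were barely correlated (0.0323, 0.0336 and 0.0337). These values cover all 17531 genes and loci together, so they cannot decide on a pairing in the read-through genes.

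Genes were named by rule (the 10 read-through genes with the highest mean CPM, those that passed the test, the 5 with the largest replicate SD, the 5 loci whose shares differed most without overlap, their parents and up to 6 members of the list of 3′ end genes). One gene of this rule is not reported here. Other genes named were chosen after their values were seen. The members, lists and tests were chosen with earlier results of these data known. Alternatives were DESeq2 1.42.0 (size factors, Wald test), limma 3.58.1 (limma-trend on FPKM), other filters, sums without the read-through gene, a replicate block, a stricter call and each library left out. Counts without read-through genes at 0 in a library were added after seeing the data. The tests were tested on simulated data. Changes were placed only in genes drawn from the well-counted ones, so the simulation says little on read-through genes at 0 in some replicates. Intervals and limits cover counting error only. Figures were drawn with matplotlib 3.10.9.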

Additional observations from a re-analysis of the deposited data

How the results depend on the processing

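Depth limits the lowest members. A count of 0 allows up to 3 counts, 37 read-through genes did not pass the filter on low counts, and 16 of those were at 0 in every library. Over 13 main results and 174 alternatives, 157 values stayed within 1.5 times the main value. Read-through genes higher in Huh7 LR numbered 8, and 13 with no filter on counts, 4 by limma-trend without a filter, 13 with a replicate block and 0 at the stricter call. Those lower numbered 4, and 7 with no filter and 1 at the stricter call. At the stricter call, 3 parents were higher and 5 lower, 1 summed locus was higher and 2 were lower, and 0 genes of 3′ end processing were lower. The block is given because the labels number the replicates, and it changed no other count of calls by over 1.5 times. With 1 library left out in turn, read-through genes numbered 7 to 10 higher and 4 to 9 lower, parents 24 to 31 higher and 36 to 48 lower, summed loci 17 to 22 higher and 18 to 27 lower, and genes of 3′ end processing 0 higher and 11 to 16 lower. The loci whose shares did not overlap numbered 17 to 23 then, with 2 samples in a group, and the median share was 2.32% to 3.16%. The median replicate SD was 0.492 to 0.620 over read-through genes, 0.115 to 0.156 over parents and 0.0694 to 0.113 over summed loci. Without read-through genes at 0 in a library it was 0.520 over 52 read-through genes.

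Over 80 named genes and sums, 21 of 1156 alternative values changed sign, all of them for results that had not passed the test or for a sum with the read-through counts left out, and the cause was not tested. With X + Y alone, the log2 fold change was 0.51 for the locus of ANKHD1-EIF4EBP3, -0.15 for BORCS8-MEF2B, -0.049 for FAM47E-STBD1, -0.49 for IQCJ-SCHIP1 and 0.12 for ZNF559-ZNF177. Of these, the sums of FAM47E-STBD1 and IQCJ-SCHIP1 had passed as higher. With 1 library left out in turn, the log2 fold change ranged from -1.34 to 3.26 for SENP3-EIF4A1, from -0.23 to 0.018 for HNRNPUL2-BSCL2 and from -0.94 to 0.19 for RPL36A-HNRNPH2, and for the sums from -0.039 to 0.066 for BORCS8-MEF2B, from -0.033 to 0.043 for PPT2-EGFL8 and from -0.11 to 0.012 for BIVM-ERCC5. RPL36A-HNRNPH2 came to 0.98, 0.14 and 0.98 by limma-trend on log2(FPKM + 0.1), on log2(FPKM + 1) and without a filter, and to 0.012 with the replicate block. With that block, ANKHD1-EIF4EBP3 passed as lower (adjusted p = 0.00201), and RBM14-RBM4, SENP3-EIF4A1 and ISY1-RAB43 passed as higher (adjusted p of 0.0439, 0.0211 and 0.00596), with a log2 fold change of 0.90 for SENP3-EIF4A1. Limma-trend without a filter lost the calls of FAM47E-STBD1, WRB-SH3BGR, MROH7-TTC4, CHKB-CPT1B, BSCL2, BORCS8, TTC4, P2RY11, RPL36A and the sums of MROH7-TTC4 and ZHX1-C8orf76 (adjusted p of 0.0532 to 0.452), and it gave a call to the sums of WRB-SH3BGR and SPECC1L-ADORA2A (0.0168 and 0.0232). DESeq2's Wald test called 7 read-through genes higher and 4 lower among 63 with an adjusted p.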

Other observations

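The following loci were chosen after their values were seen. CORO7-PAM16 joins CORO7, a gene of an actin-regulating protein, to PAM16, a gene of mitochondrial protein import, and every exon base of the read-through gene is shared with a parent. It had 1437, 5 and 1400 counts in Huh7 P against 23, 346 and 18 in Huh7 LR and did not pass the test (edgeR adjusted p = 0.0743). The sum had 4205, 3477 and 3739 counts in Huh7 P against 4692, 5291 and 4881 in Huh7 LR and rose by 0.35 on the log2 scale (adjusted p = 0.000926), with a replicate SD of 0.0363 against 3.6 for the read-through gene. In TVP23C-CDRT4, the downstream parent CDRT4 had 817, 27 and 712 counts in Huh7 P against 1162, 680 and 28 in Huh7 LR, and the read-through gene had 1013, 1519 and 940 counts and 697, 829 and 1743 counts. Within each group the read-through gene was highest in the library where CDRT4 was lowest. RAB4B-EGLN2, which ends in a gene of an oxygen-sensing prolyl hydroxylase, had 0, 417 and 0 counts in Huh7 P against 0, 219 and 0 in Huh7 LR. BCL2L2-PABPN1, which joins an apoptosis inhibitor gene to that of a poly(A)-binding protein, had 0, 74 and 0 counts in Huh7 P against 0, 42 and 0 in Huh7 LR.

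Parents also passed the stricter call at loci whose read-through gene had few or no counts. SAA4, of the serum amyloid A family of the liver, had 20, 13 and 14 counts in Huh7 P against 155, 500 and 270 in Huh7 LR and rose by 4.24 ± 0.40 (SE) on the log2 scale (edgeR adjusted p = 1.35e-05), while SAA2-SAA4 was at 0 in every library. MINDY4, of a deubiquitinase family, fell by 2.70 ± 0.34 (SE), from 60 to 89 counts to 8 to 14, and INMT-MINDY4 had 9 counts in Huh7 LR replicate 3 and 0 elsewhere. With ZNF670-ZNF695, these loci were the 3 summed loci that passed the stricter call. P2RX5, an ATP-gated ion channel gene, passed it where the read-through gene was well counted, since P2RX5-TAX1BP3 had 362 to 826 counts over the 6 libraries. P2RX5 itself had 106, 47 and 75 counts in Huh7 P against 0, 2 and 11 in Huh7 LR and fell by 4.11 ± 0.68 (SE) (adjusted p = 0.000545). P2RX5 and the read-through gene together stood at 7.51, 9.35 and 7.48 CPM in Huh7 P and at 5.55, 11.8 and 8.19 CPM in Huh7 LR, which overlap. Most of that value is the read-through gene, whose own spread can hide a change of P2RX5. The overlap therefore cannot decide on the fall of P2RX5.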
